A study of Rattus norvegicus with 2 samples.

Results

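The choroid plexus is the secretory tissue of the brain ventricles, and 8 genes typical of its epithelium were followed in the rat hypothalamus before and at puberty. The genes were Ttr, Folr1, Kl, Clic6, Enpp2, Aqp1, Otx2 and Slc4a5. They were found by gene name, and the values of all transcripts of a name were summed. All 8 were listed, with 10 transcripts among the 26324 transcripts and 22353 genes of the mRNA table.

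RNA was taken from the hypothalamus of female Sprague Dawley rats. The prepubertal group was 25 days old and the pubertal group 35 days old, at the first estrus, and no treatment is named for either group. The study describes 3 rats per stage, but only 1 value for each stage was deposited. Each stage therefore counts as 1 library, the spread between rats is unknown and no p-value is given.

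The choroid plexus consists of a single layer of epithelial cells around leaky capillaries and makes most of the cerebrospinal fluid. Ions are carried across the epithelium, water follows through aquaporins, and carrier proteins and vitamins are released into the fluid. The plexus of the third ventricle lies above the hypothalamus. Several of the 8 genes are also used by other cells of the brain, such as Enpp2 in oligodendrocytes, Aqp1 in red blood cells and Otx2 in the pineal gland and the eye.

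Expression is given as FPKM, a number of fragments divided by the transcript's length and by the depth of the library, as estimated and deposited by the authors. In transcripts of 800 to 6000 nt that were the only one of their gene, low FPKM values fell on whole multiples of a step that depends on the length alone. This held, within 0.1 of a step and up to 10 steps, for 96.7% of 1621 values in the prepubertal library and 96.8% of 1766 values in the pubertal library. The step was taken as 1 fragment, which at 1000 nt was worth 0.0648 FPKM before puberty and 0.0824 FPKM at puberty. Without its shortest transcripts, which were left out of this sum, the mRNA table then rested on 19550000 and 15170000 fragments. From the number of fragments behind a gene, a 95% interval was computed for its level (exact Poisson) and for its ratio between the libraries (exact Clopper-Pearson), and these intervals cover counting error only, not the difference between animals.

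Genes of the labelled tissue were looked at first. All 14 listed hypothalamic genes reached at least 1 FPKM in 1 library, as did 13838 of all 22353 genes and all 6 listed thalamic genes, so this count does not tell the hypothalamus from its neighbours. Among the hypothalamic genes was Pmch, the precursor of melanin-concentrating hormone of the lateral hypothalamus, at 1675 and 2723 FPKM. Of the other choroid plexus epithelium genes, 4 named here for their role were at about 2 FPKM or less. Kcnj13, a potassium channel of its epithelium, was at 2.02 FPKM before puberty and 1.35 FPKM at puberty, above 44.1% and 41.3% of all genes. The respective values were 1.92 and 1.498 FPKM for the channel subunit Kcne2, 0.310 and 0.0990 FPKM for the membrane protein Tmem72, and 0.141 and 0.135 FPKM for the BMP antagonist Sostdc1. All 4 genes were far below Ttr in both libraries, and Sostdc1 rested on only 4 and 3 fragments. Of the 29 measured genes of their list, 20 were lower at puberty as deposited, these 4 among them, and 9 were higher. Others of the list stood at higher levels, such as Slc13a4 at 7.63 and 3.31 FPKM and Calml4 at 5.05 and 7.65 FPKM.

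The 8 members spanned a wide range of levels. Enpp2 and Ttr together made up most of the summed FPKM of the members, 156.0 before puberty and 166.1 at puberty. Enpp2 alone took 75.2% of that sum before puberty and 79.4% at puberty, and Ttr took 18.6% and 13.9%. The other members lay between 0.293 and 3.41 FPKM in both libraries. In the prepubertal library the order was Enpp2, Ttr, Otx2, Folr1, Clic6, Aqp1, Kl and Slc4a5. The counting intervals of Otx2 and Folr1, Folr1 and Clic6, Clic6 and Aqp1, and Aqp1 and Kl overlapped, so the order of these neighbours was not resolved at this depth. In the pubertal library Aqp1 stood before Clic6 and Folr1 before Otx2, and the intervals of Folr1 and Otx2, Otx2 and Aqp1, and Aqp1 and Clic6 overlapped, while those of Clic6 and Kl did not.

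**Figure D1:**
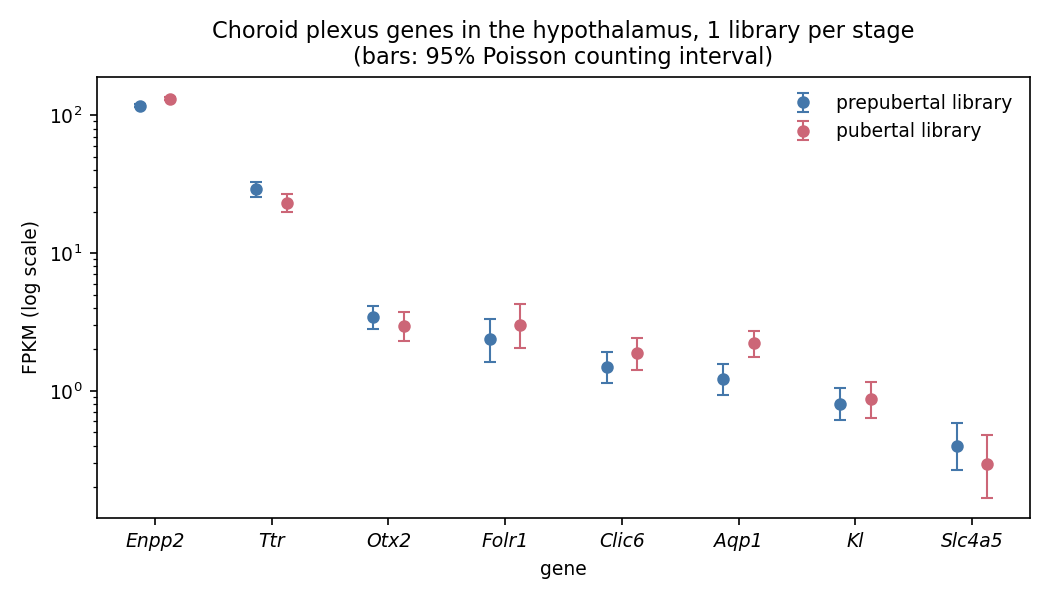
FPKM (log scale) of the 8 genes in the prepubertal (blue) and the pubertal (red) library, with bars for the 95% Poisson counting interval, 1 library per stage. Enpp2 (117 and 132 FPKM) and Ttr (29.0 and 23.0 FPKM) stand above the other 6, which lie between 0.293 and 3.41 FPKM, and the intervals of the 2 stages are apart for Enpp2 and Aqp1.

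The comparison of the stages asked whether these genes differ between the prepubertal and the pubertal hypothalamus. The log2 ratio compares FPKM + 1 at puberty with FPKM + 1 before puberty, so it is positive for a gene higher at puberty and understates the difference of low genes. Each difference is also given as the plain ratio of FPKM with its counting interval. With the deposited scaling, 5 of 8 were higher and 3 of 8 lower at puberty, and their log2 ratios ran from -0.32 to 0.53 around a median of 0.11. Over all 22353 genes 8715 were higher and 9049 lower, with a median of 0.00. Of the 8 members, 0 differed by at least 2-fold in FPKM + 1 in either direction, against 0.653% of all genes. At 1.5-fold the count was also 0 of 8, against 3.25%. The members' share of the summed FPKM of the mRNA table was 0.0202% before puberty and 0.0206% at puberty. In tissue RNA, fewer cells of a type and less RNA per cell cannot be told apart.

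Libraries can also be scaled in other ways. Equal medians of the genes above 0 in both libraries needed a factor of 1.03 on the pubertal library, and equal upper quartiles of the same genes one of 1.01. Equal Actb, the gene to which the study's quantitative PCR was normalised, needed a factor of 1.32 and moved the median of the 13838 genes with at least 1 FPKM in 1 library by 0.37 on the log2 scale. With that factor 7 of the 8 members and 14825 of all genes were higher at puberty, and 1 member, Slc4a5, and 2938 genes were lower. The members' median log2 ratio was then 0.36 in place of 0.11. A gene turns from lower to higher with equal Actb where its FPKM ratio lies between 0.755 and 1. This was so for Ttr and Otx2 among the members, and for 56 of the 95 genes in all lists together that were lower with the deposited scaling. Among the genes named below these were Rbp4, Slco1c1, Opalin, Plpp3, Clic4, Aqp4, Atp1b1, Otx1, Igfbp2, Sulf1, Msx1 and Rlbp1. Among those named above they were Kcne2 and Sostdc1. Directions and counts are given for the deposited scaling unless another is named.

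Among the secreted carriers, Ttr encodes transthyretin, which binds thyroxine and the retinol-binding protein and is among the most abundant products of the choroid plexus. Ttr (ENSRNOG00000016275, 1 transcript of 701 nt) was at 29.0 FPKM in the prepubertal library and at 23.0 FPKM in the pubertal library, from 268 and 168 fragments. It was lower at puberty with the deposited scaling and slightly higher (log2 ratio 0.07) with equal Actb. The deposited log2 ratio was -0.32, and the FPKM ratio was 0.793, with a counting interval of 0.650 to 0.966. Among the 1265 genes within 0.25 (log2) of its mean level, 8.06% had a lower log2 ratio than Ttr and the 5th percentile was -0.38, so a ratio of this size was also seen in many other genes of the same level. Rbp4, the retinol-binding protein that circulates with transthyretin, went from 32.5 to 25.5 FPKM (log2 ratio -0.34). The thyroxine transporter Slco1c1 was at 40.5 and 40.0 FPKM. Of the 7 carriers of retinoid and thyroid hormone listed, 3 were higher, 3 lower and 1 at 0 in both libraries, and with equal Actb 5 were higher and 1 lower.

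Folr1 encodes the folate receptor alpha, which moves folate from the blood through the choroid plexus into the cerebrospinal fluid. Folr1 (ENSRNOG00000019902, 1 transcript of 907 nt) was at 2.37 FPKM before puberty and at 3.01 FPKM at puberty. Both values rested on 32 fragments, and the same number gives a higher FPKM in the less deep pubertal library. The FPKM ratio was 1.27 with a counting interval of 0.754 to 2.14, so no difference was detectable at this depth. Of the other 4 genes of folate transport, Slc19a1, the reduced folate carrier, had the log2 ratio farthest from 0, -0.45, from 4.25 to 2.85 FPKM. The proton-coupled folate transporter Slc46a1 was at 7.59 and 8.32 FPKM, and the second folate receptor Folr2 at 2.58 and 2.66 FPKM.

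Kl encodes klotho, a membrane protein that serves as the co-receptor of FGF23 and is also shed into the cerebrospinal fluid. Kl (ENSRNOG00000001092, 1 transcript of 3527 nt) was at 0.810 and 0.866 FPKM, from 55 and 46 fragments. The 2 levels were close, and the interval of their ratio of 1.07 ran from 0.707 to 1.61. Its ligand Fgf23 was listed at 0 in both libraries, and the related co-receptor Klb at 0.0717 and 0.0458 FPKM. Of the 9 genes listed for klotho and the endocrine FGFs, 2 were higher, 6 lower and 1 at 0 in both, with a median log2 ratio of -0.04, and with equal Actb 4 were higher and 4 lower. The receptor genes Fgfr1 (22.4 to 15.4 FPKM, log2 ratio -0.51) and Fgfr3 (37.8 to 49.2 FPKM, log2 ratio 0.37) stood apart in opposite directions.

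Enpp2 encodes autotaxin, the secreted enzyme that makes lysophosphatidic acid, and it is made by oligodendrocytes as well as by the choroid plexus. Enpp2 (ENSRNOG00000004089) was at 117 FPKM before puberty and at 132 FPKM at puberty, above 95.6% and 96.0% of all genes. The FPKM ratio was 1.12, and the many fragments (5314 and 4681) gave a narrow counting interval of 1.08 to 1.17. Among the 332 genes within 0.25 (log2) of its mean level, 36.4% had a log2 ratio at least as far from 0. Of its 2 transcripts, the one of 2467 nt (ENSRNOT00000051139) carried 62.8% of the FPKM before puberty and 65.9% at puberty, and went from 73.7 to 86.9 FPKM. The one of 2392 nt (ENSRNOT00000005561) was at 43.6 and 45.002 FPKM. Fragments that fit both transcripts were divided between them by the authors' estimate.

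The level of Enpp2 was 4.04 times the FPKM of Ttr before puberty and 5.72 times at puberty, and 49.5 and 43.8 times that of Folr1. Among the oligodendrocyte genes some were above Enpp2 and some below it. Mbp, which encodes myelin basic protein, was at 4633 FPKM before puberty and at 5335 FPKM at puberty, and Opalin, a membrane protein of mature oligodendrocytes, at 60.3 and 46.1 FPKM. All 8 oligodendrocyte markers were measured, at 46.1 FPKM or more, and 4 were higher and 4 lower at puberty, and 8 higher with equal Actb. Their summed FPKM was 1.08 times as high at puberty, and the FPKM of Enpp2 was 0.0253 of that of Mbp before and 0.0247 of it at puberty. The part of oligodendrocytes in the level of Enpp2 was not tested. Without Enpp2, the other 7 members had a median log2 ratio of 0.04 and their summed FPKM was 38.7 before puberty and 34.2 at puberty.

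The genes that act with autotaxin were present as well. Of 11 genes of lysophosphatidic acid signalling, 4 were higher and 7 lower, with a median log2 ratio of -0.08, and with equal Actb 10 were higher and the median was 0.22. Lpar1, the receptor most abundant in this list, was at 58.1 and 59.9 FPKM. Plpp3, a phosphatase that degrades the lipid, was at 103 and 90.03 FPKM, and Plpp2, of the same family, went from 4.87 to 7.53 FPKM (log2 ratio 0.54). The genes whose levels in the 2 libraries were closest to those of Enpp2 were RGD1565297, Ubxn1, Arhgdig, Hint2 and LOC100910839, at distances of 0.03 to 0.04 in log2(FPKM + 1) over only 2 libraries.

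Aqp1 encodes the water channel of the apical choroid plexus membrane, and of the 8 members it differed most between the libraries. Aqp1 (ENSRNOG00000011648, 1 transcript of 2624 nt) was at 1.22 FPKM before puberty and at 2.21 FPKM at puberty, from 60 and 85 fragments. The pubertal level was higher although the pubertal library was less deep. The log2 ratio was 0.53, and the FPKM ratio was 1.81 with a counting interval of 1.29 to 2.56, which does not overlap with that of Ttr. Among the 973 genes within 0.25 (log2) of its mean level, 95.8% had a lower log2 ratio. In either direction, 10.2% of them had a log2 ratio at least as far from 0. Aqp1 is also the water channel of red blood cells, whose genes were higher at puberty too. All 5 measured red blood cell genes were higher (log2 ratios from 0.22 to 1.47), with Hbb, the beta chain of haemoglobin, going from 2130 to 5898 FPKM and Alas2, the erythroid enzyme of haem synthesis, from 13.9 to 21.9 FPKM. Their summed FPKM was 6408 before puberty and 12541 at puberty. The part of blood in the level of Aqp1 was not tested, and haemoglobin genes have near-identical copies, so their single values are uncertain. Of the 8 endothelial markers 4 were higher and 4 lower, and 7 were higher with equal Actb. Of the 9 other aquaporin genes 1 was higher, 4 were lower and 4 were at 0 in both libraries, and with equal Actb 4 were higher and 1 lower. Aqp4, the water channel of astrocytes, was at 224 and 188 FPKM.

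The deposited tables hold no coordinates or sequences of these mRNAs, and promoters were taken from a table of RefSeq sequences (GRCr8), in which 4 of the 8 members were matched. The 100 bases before the start of Aqp1 are shown because this gene differed most, on the plus strand of chromosome 4, chr4:85812684-85812783, with capitals for the TATAAA match, which begins 30 bases before the start.
Aqp1: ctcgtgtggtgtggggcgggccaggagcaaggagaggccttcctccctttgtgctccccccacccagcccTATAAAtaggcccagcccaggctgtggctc
In the 250 bases before the start, TATAAA on the gene's strand was found in 1 of these 4 members, Aqp1, and in 8.06% of the 33469 promoters of the table. The letters TAATCC or, on the other strand, GGATTA, the core to which OTX proteins bind, were found in 0 of the 4 and in 6.34% of all promoters. A match is a description of the letters only, and the libraries hold no measure of promoter use.

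The other members of the ion and fluid machinery showed smaller differences. Slc4a5 encodes a sodium bicarbonate cotransporter of the apical membrane. Slc4a5 (ENSRNOG00000010378, 1 transcript of 3616 nt) was the lowest of the 8, at 0.401 and 0.293 FPKM, from 28 and 16 fragments. The interval of its ratio of 0.731 ran from 0.369 to 1.40, so neither a fall nor a rise was detectable at this depth. Clic6, a chloride intracellular channel protein, was at 1.49 and 1.87 FPKM (ENSRNOG00000026870, 1 transcript of 2229 nt, 61 and 60 fragments). Its ratio was 1.26, with an interval of 0.865 to 1.82. Among its 5 relatives, Clic4 was the most abundant at 69.6 and 56.9 FPKM, and 3 of the 5 were higher and 2 lower, or 4 higher and 1 lower with equal Actb.

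The wider set of transporters used for fluid secretion is shared with neurons and glia and was expressed far above Slc4a5. Of 13 such genes, 4 were higher and 9 lower, with a median log2 ratio of -0.16, and with equal Actb 11 were higher and the median was 0.25. The sodium pump subunit Atp1b1 was at 1058 and 948 FPKM, and carbonic anhydrase 2 (Car2) at 254 and 298 FPKM. Slc12a2, the sodium, potassium and chloride cotransporter of the apical choroid plexus membrane, was at 68.7 and 83.5 FPKM (log2 ratio 0.28).

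Otx2 encodes a homeodomain transcription factor that is needed to form and maintain the choroid plexus. The name covers 2 gene entries in the table, each with 1 transcript, whose fragments may have been shared between them. ENSRNOG00000048322 (1894 nt) was at 2.52 and 2.07 FPKM, and ENSRNOG00000013406 (1315 nt) at 0.895 and 0.870 FPKM. Their sum was 3.41 FPKM before puberty and 2.93 FPKM at puberty, a log2 ratio of -0.17 with the deposited scaling and of 0.15 with equal Actb. The FPKM ratio was 0.860 with a counting interval of 0.628 to 1.18. The relatives Otx1 and Crx were at 0.340 and 0.259 FPKM and at 0 in both libraries.

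Of the 8 members, the counting interval lay wholly above 1 for Enpp2 and Aqp1, wholly below 1 for Ttr, and held 1 for the other 5. These 3 of 8 are the same share as over all 16358 genes with fragments in both libraries, of which 37.5% had an interval wholly on 1 side of 1. The members in question depend on the scaling. With equal Actb the interval of Ttr (0.861 to 1.28) held 1 and that of Clic6 (1.15 to 2.42) lay wholly above 1, as did those of Enpp2 and Aqp1, so 3 of 8 were above and 0 below, against 62.4% of all genes on 1 side of 1. The interval compares 2 libraries, not 2 groups of rats.

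**Figure D2:**
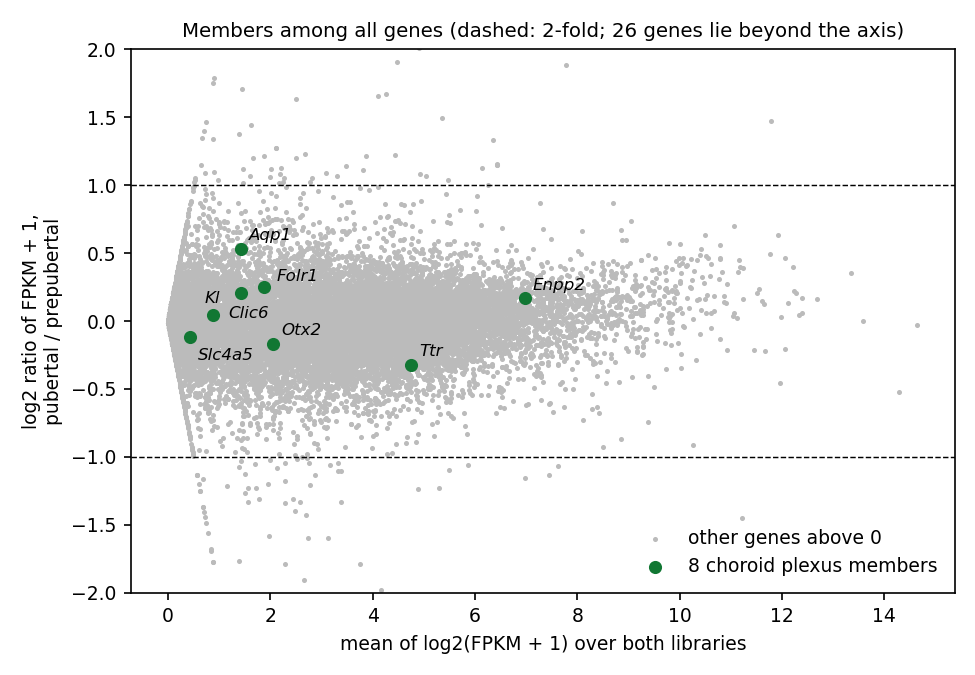
Log2 ratio of FPKM + 1 (pubertal over prepubertal) against the mean of log2(FPKM + 1) for the 17764 genes above 0 in either library (grey) and the 8 members (green), with 26 genes beyond the axis and dashed lines at 2-fold. All 8 members lie between the dashed lines, from -0.32 (Ttr) to 0.53 (Aqp1).

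Other genes of the choroid plexus epithelium were examined to see whether they differed together. Of 30 listed genes, 29 were measured, 16 of them with at least 1 FPKM in 1 library. With the deposited scaling 9 were higher and 20 lower, with a median log2 ratio of -0.05, and with equal Actb 17 were higher and 12 lower, with a median of 0.03. Among the 16 genes with at least 1 FPKM in 1 library, 8 were higher and 8 lower, with a median of 0.03. The summed FPKM of the 29 was 107.1 before puberty and 94.3 at puberty, of which the growth factor binding protein Igfbp2, which many other cells make, had 47.7 and 37.1.

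Among these genes, 1 of 29 differed by at least 2-fold in FPKM + 1 in either direction, against 0.653% of all genes. It was the lower value of Slc13a4, a sulfate transporter of the choroid plexus and the meninges, which went from 7.63 to 3.31 FPKM (542 and 184 fragments). The FPKM ratio was 0.434, with a counting interval of 0.365 to 0.514. The log2 ratio of -1.001 lay at the threshold, and the count was 0 with equal medians, equal upper quartiles or equal Actb and 4 with a pseudocount of 0.1. For these settings the share of all genes was not computed. Genes of fibroblasts and meninges were lower as well. All 8 were lower with the deposited scaling and 5 of 8 with equal Actb (deposited median log2 ratio -0.57, range -1.43 to -0.11), and their summed FPKM was 93.6 before puberty and 61.2 at puberty. Slc6a13, a GABA and taurine transporter of the meninges, went from 8.72 to 3.71 FPKM and Col1a1, a chain of type I collagen, from 9.57 to 2.93 FPKM. The part of the meninges in the level of Slc13a4 was not tested.

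Other lower values were those of Ecrg4, listed under its older symbol RGD1305645, from 5.31 to 2.20 FPKM (21 and 7 fragments, ratio interval 0.149 to 1.01), Bmp7, a morphogen, from 1.42 to 0.739 FPKM (0.316 to 0.831) and Igfbp2 (0.703 to 0.858). Tmem72 rested on 20 and 5 fragments, with a ratio of 0.320 and an interval of 0.0938 to 0.878. Cldn1, a tight junction protein below 1 FPKM that is named for its interval of 0.252 to 0.913 after its values were seen, was at 0.634 and 0.312 FPKM. Kcnj13 rested on 42 and 22 fragments and its interval of 0.379 to 1.14 held 1. Of the 28 genes with fragments in both libraries, the interval lay wholly below 1 for 5, wholly above 1 for 3 and held 1 for 20, so 8 of 28 did not hold 1, against 37.5% of all genes with fragments in both libraries. With equal Actb 1 was below, Slc13a4, and 7 above, so 8 of 28 again did not hold 1, against 62.4% of all these genes. Higher values were those of the keratin Krt8, from 3.68 to 5.96 FPKM (1.25 to 2.09), the calmodulin-like gene Calml4, from 5.05 to 7.65 FPKM (1.08 to 2.13), and the transcription factor Lmx1a, from 2.57 to 3.62 FPKM (1.13 to 1.75).

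The remaining genes of this list at 1 FPKM or more had counting intervals that held 1. Car12, a membrane carbonic anhydrase, was at 1.97 and 2.96 FPKM and Krt18, the partner of Krt8, at 4.66 and 5.83 FPKM. Wfdc2, a secreted protease inhibitor, was at 4.67 and 5.74 FPKM, Prlr, the prolactin receptor, at 1.96 and 2.27 FPKM, and Rdh5, a retinol dehydrogenase, at 1.92 and 2.22 FPKM. The sulfatase Sulf1 was at 8.01 and 7.18 FPKM, the homeobox gene Msx1 at 2.24 and 2.09 FPKM and Kcne2 rested on 8 and 5 fragments. The genes of this epithelium thus lay on both sides of a ratio of 1.

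**Figure D3:**
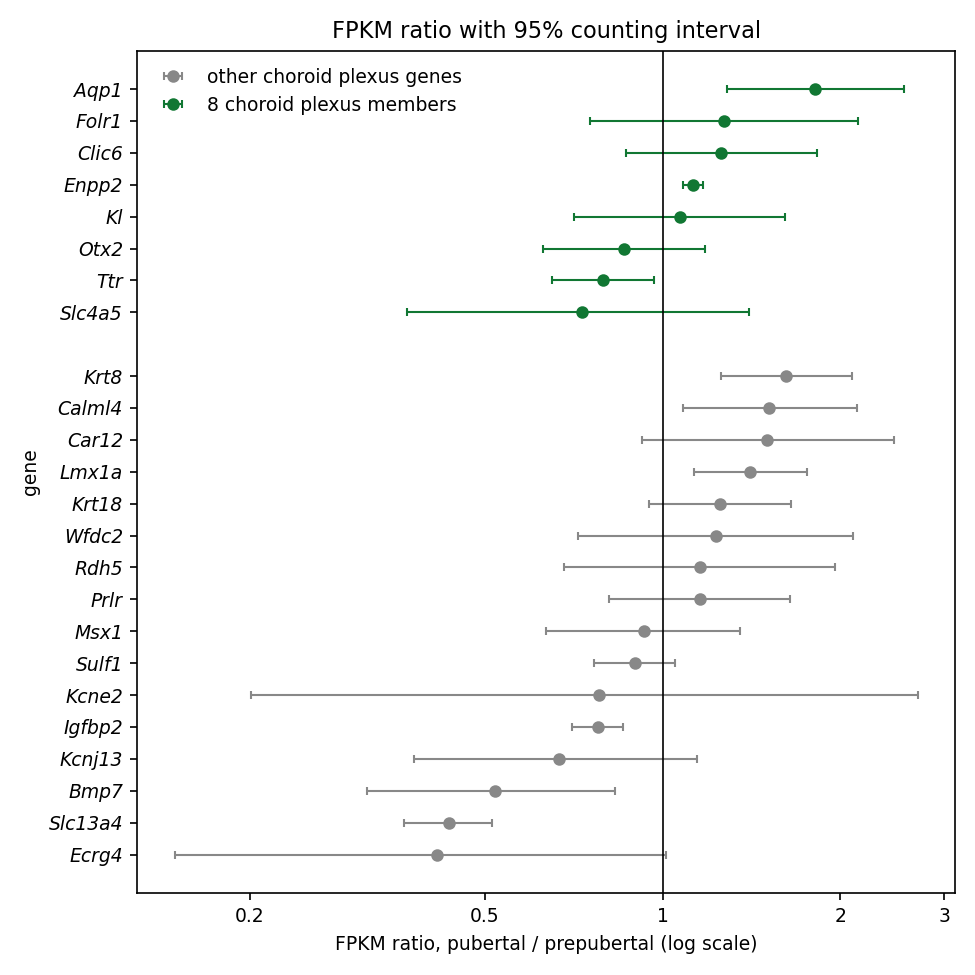
FPKM ratio, pubertal over prepubertal (log scale), with 95% counting intervals for the 8 members (green) and for the 16 other choroid plexus genes with at least 1 FPKM in 1 library (grey). The members run from 0.731 (Slc4a5) to 1.81 (Aqp1), and the other genes lie on both sides of 1.

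Markers of neighbouring cells were set beside the members. The ependyma lines the ventricles and is continuous with the choroid plexus epithelium. Of its 7 measured markers 3 were higher and 4 lower, with a median log2 ratio of -0.03 that became 0.35 with equal Actb, and summed FPKM of 129.7 and 133.7. Tanycytes, the ependymal cells of the ventricle floor, gave a median of -0.03 over 7 measured markers, 3 higher and 4 lower, and of 0.32 with equal Actb. Oligodendrocytes had a median of -0.06 and endothelium one of -0.02, which became 0.34 and 0.38 with equal Actb.

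Genes of the hypothalamus and of tissues next to it lay farther from 0 in several lists with the deposited scaling. The 6 thalamic markers were all lower, and 3 of 6 with equal Actb (deposited median log2 ratio -0.40, summed FPKM 382.0 and 325.4). Of 14 hypothalamic genes 11 were higher (median 0.27), and 13 with equal Actb. Pituitary genes had a median of 0.21, 6 of 8 higher and 7 of 8 with equal Actb, with prolactin (Prl) at 0 before puberty and 3.40 FPKM at puberty. Retinal pigment epithelium, another tissue that uses Otx2 and Ttr, had 5 of 6 markers higher, and 6 of 6 with equal Actb, with a deposited median of 0.06. Its levels ran from the pigment enzyme Tyr, at no more than 0.156 FPKM, to Rlbp1, a retinal-binding protein that glia also make, at 28.2 and 27.4 FPKM, with the retinoid isomerase Rpe65 at 5.15 and 5.55 FPKM. Of 6 pineal genes 3 were higher and 3 lower. The pineal enzyme Aanat was at 0.155 and 0.0989 FPKM, and Tph1, which starts serotonin synthesis in the pineal gland, at 1.34 and 0.203 FPKM. The part of these neighbouring tissues in the levels of the 8 members was not tested.

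**Figure D4:**
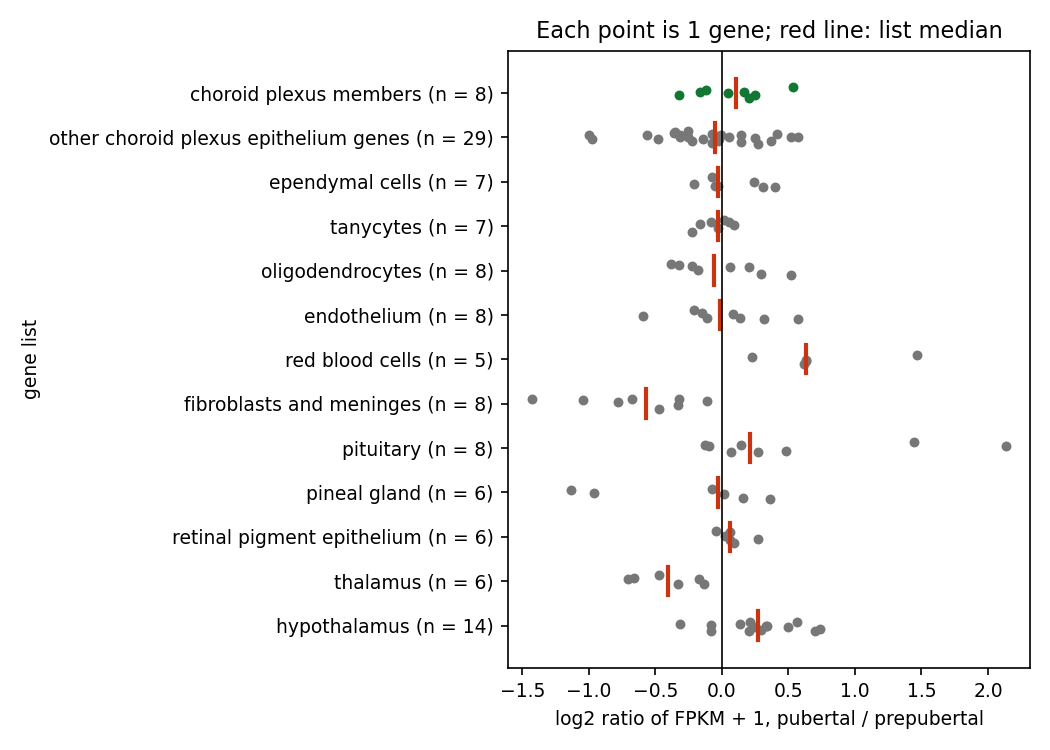
Log2 ratio of FPKM + 1 (pubertal over prepubertal) of each gene in the choroid plexus lists and in the 11 lists of other cell types, with the median of each list as a red line. The members have a median of 0.11, red blood cell genes lie to the right (0.63) and genes of fibroblasts and meninges to the left (-0.57) with the deposited scaling.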

How the data were processed

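Hypothalamic RNA of female rats was depleted of ribosomal RNA, made into strand-specific libraries and sequenced in paired ends by the authors. They aligned the reads with TopHat and estimated FPKM per transcript with Cuffdiff 2.1.1. Per the labels the build was Rnor_5.0, whereas the study's methods name a later annotation. The authors deposited 1 FPKM value for each stage and transcript. Whether the 3 rats of a stage were pooled or averaged is not given in the sources used here. The comparison table also holds the authors' fold changes, p-values and q-values, which were not used. From it, gene names and transcript lengths were taken. The FPKM of 13 transcripts, 0 of them of the members, differed between the tables.

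FPKM were summed per gene name, and a pseudocount of 1 and no filter were used. The fragments behind a value were derived from the step between low FPKM, fitted on length. The fold call was tested on simulated data with counting noise only and 3-fold changes in genes of many fragments. There 198 of 200 changed genes were recovered and 0 of 7800 unchanged genes were called. Smaller changes, and changes in genes of few fragments such as most members, were not simulated. A pseudocount of 0.1, filters at 0.1 and 1 FPKM, 3 scalings, the highest transcript per gene and the comparison table's FPKM were alternatives. Of 185 genes in 21 lists, 180 were matched, 5 by an older symbol. Every member, every other choroid plexus gene at 1 FPKM or more, and in other lists the extremes and the most abundant genes could be named. Ligands and defining markers at 0 or near 0, and Slc46a1, Folr2, Otx1, Crx and Slco1c1, were named for their role. Some genes that this rule would name are not reported here. The members and lists were chosen with earlier results of these data known. The tools were scipy 1.17.1, pandas 2.3.3, numpy 2.4.6 and matplotlib 3.10.9 under Python 3.11.15.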

Additional observations from a re-analysis of the deposited data

How the results depend on the processing

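Over 8 alternatives, 265 of 283 recomputed values kept their sign and moved by no more than 1.5-fold (for a log2 ratio or median, in the fold it stands for, and not in the log2 value itself), where a change from 0, or between values both under 0.05 in size, was not counted. The count of members past 2-fold was 0 under each alternative run. With equal Actb the members' median became 0.36 in place of 0.11, the log2 ratio became 0.0689 for Ttr and 0.15 for Otx2, and the list medians 0.22 for lysophosphatidic acid signalling, 0.25 for fluid ion transport, 0.35 for ependymal cells, 0.32 for tanycytes, 0.34 for oligodendrocytes, 0.38 for endothelium and 0.0304 for the other choroid plexus genes. The last had 0.0347 with at least 1 FPKM in 1 library, in place of -0.05. Other choroid plexus genes past 2-fold numbered 4 with a pseudocount of 0.1 and 0 with equal medians, equal upper quartiles or equal Actb, in place of 1. The share of all genes past 2-fold was not computed for the alternatives, so these counts and that of the members cannot be set against it. With equal Actb, 17 of them were higher in place of 9, 6 in place of 2 of the 8 partner lists had a median above 0, and 9 in place of 4 of the 11 marker lists. The changes with equal Actb follow from the factor of 1.32 itself. The pineal median was -1.04 with at least 1 FPKM in 1 library, in place of -0.03, where the 2 genes left passed through the prepubertal library alone, so the filter set its sign. No paired analysis was possible because each stage has 1 library. The counting intervals under 3 scalings were added after seeing the data. In each of these, 3 of 8 members and 8 of 28 other choroid plexus genes lay wholly on 1 side of 1, but with equal Actb Clic6 took the place of Ttr. Over all 16358 genes with fragments in both libraries, 6254 did so with equal medians and 6140 with equal upper quartiles. With equal Actb 62.4% of them did so, against 37.5% with the deposited scaling. Depth limits Slc4a5, Folr1, Kl and Clic6 most, at 16 to 61 fragments a library.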

Other observations

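Of the 6 pineal genes, 3 were higher and 3 lower at puberty, and the 2 that reached 1 FPKM did so in the prepubertal library alone. Gngt1, a transducin subunit of photoreceptors and pinealocytes, was at 1.19 FPKM before puberty, from 6 fragments, and listed at 0 at puberty. Tph1, tryptophan hydroxylase 1, rested on 101 fragments before puberty and 12 at puberty, from 1.34 to 0.203 FPKM, while Aanat and Asmt, the enzymes that turn serotonin into melatonin, were at 0.155 and 0.0989 FPKM and at 0.186 and 0.523 FPKM.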
